A study of Mus musculus with 24 samples.

Results

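The 10 genes described here are the engineered tumour suppressors of a mouse model of small cell lung cancer, Rb1, Trp53 and Rbl2, together with the third pocket protein gene Rbl1, the cyclin-dependent kinase (CDK) inhibitor genes Cdkn1a, Cdkn1c, Cdkn2a and Cdkn2b, and the D cyclin genes Ccnd1 and Ccnd2. They were chosen by name, 10 of 21883 protein-coding genes in the gene table used. Chromatin immunoprecipitation with sequencing (ChIP-seq) was carried out on 4 early-passage cell lines, each from 1 RPP tumour; the RPP alleles of Rb1, Trp53 and Rbl2 are common to the control and the mutant tumours. Lines 159-1 and 1014 carried a control guide RNA (sgControl RPP, called Kdm6a-WT in the labels) and lines 236L and 236R a guide RNA against Kdm6a (sgKdm6a RPP, Kdm6a-mutant). The marks H3K4me1, H3K4me2 and H3K27me3 were mapped in every line and KDM6A protein in the 2 controls, with untreated cells collected 24 h after plating in suspension. The labels give 2 mM of the crosslinker DSG for the KDM6A libraries and none for the histone libraries. Overlaps of KDM6A with a histone mark therefore compare libraries that were not labelled as prepared alike. The labels give neither the ages of the animals nor the delivery of Cre and guides. They do not say whether the 2 mutant lines came from different animals. Any p-value therefore refers to the ways of dividing these 4 samples alone and not to a spread between animals.

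RB1, RBL1 and RBL2 are the pocket proteins: they bind E2F transcription factors and hold the genes of DNA replication and mitosis silent. D cyclins with CDK4 or CDK6 phosphorylate the pocket proteins and release E2F. The INK4 inhibitors, encoded at Cdkn2a and Cdkn2b, block CDK4 and CDK6, and the CIP/KIP inhibitors, encoded by Cdkn1a and Cdkn1c, block further cyclin-CDK pairs. TRP53 switches on Cdkn1a after DNA damage, and the ARF product of Cdkn2a protects TRP53 from MDM2. Loss of RB1 and TRP53 is the rule in human small cell lung cancer, and the removal of Rbl2 as well shortens tumour latency in mice. H3K4me1 marks mostly enhancers, H3K4me2 promoters and enhancers, and H3K27me3, written by the Polycomb complex PRC2, marks repressed genes. KDM6A is an H3K27 demethylase that also belongs to H3K4 methyltransferase complexes.

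The measure was the length of a gene's window, its body with 10 kb on each side, that the authors' broad peaks covered in each list, in kb. A gene was called higher or lower in the mutant lines where the 2 genotypes did not overlap and the gap between their nearest lines was 2 kb or more. With 2 lines against 2, an exact two-sided permutation test of a single gene has 3 ways to divide the lines and cannot give a p below 0.333, so no gene can pass 0.05. The lists hold no read counts, so depth is unknown, and a list can be short because its library was shallow. The H3K27me3 lists differed most in length, with 45.4 Mb covered in 159-1, 110.3 Mb in 1014, 13.8 Mb in 236L and 30.5 Mb in 236R, whereas the H3K4me2 lists ran from 73.7 to 87.6 Mb and the H3K4me1 lists from 109.2 to 134.6 Mb. For H3K4me2 the deposited names of the 2 control lists name the other control line. Values below follow the sample labels, and the comparison of genotypes is the same either way. Overlaps of H3K4me2 with another mark in a control line rest on these labels and may pair 2 different lines.

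Line 236L stood apart from the other 3 lines, all labelled small cell lung cancer, a neuroendocrine tumour. Its windows of 8 neuroendocrine genes held 24.7 kb of H3K4me1 in all, against 61.0, 72.3 and 76.5 kb in 159-1, 1014 and 236R, and 7 of the 8 carried H3K27me3, against 0 to 2 in the other lines. Insm1, a regulator of neuroendocrine differentiation, had 6.54 kb of H3K27me3 in 236L and 0 kb in the other 3 lines. The 8 genes did not all go this way. Neurod1, counted among the 7, had 0.461 kb in 236L, 0 kb in 236R, and 5.20 and 13.99 kb in 159-1 and 1014. Syp had no H3K27me3 in 236L. H3K4me1 in 236L exceeded both control lines at Syp (3.64 kb, against 1.97 and 1.07 kb) and Neurod1 (2.15 kb, against 1.16 and 1.475 kb). Windows of 6 leukocyte genes summed to 101.0 kb of H3K4me1 in 236L, with all 6 above 0, and to 11.1 to 19.9 kb in the other lines. The defining leukocyte gene Ptprc had 16.1 kb of H3K4me2 in 236L, 0.784 kb in 236R and 0 kb in both control lines. Fibroblast and endothelial genes (6, 36.7 to 54.9 kb of H3K4me1) and lung epithelial genes (5, 26.8 to 41.6 kb) ranged less widely over the lines in this mark. Their H3K27me3 did set 236L apart. Fibroblast and endothelial windows held 15.3 kb in 236L, against 72.0, 123.8 and 61.2 kb in 159-1, 1014 and 236R. Lung epithelial windows held 9.25 kb, against 16.4, 32.9 and 11.6 kb, and leukocyte windows 0 kb, against 27.8, 58.3 and 24.2 kb. The H3K27me3 list of 236L was also the shortest of the 4. What these markers contribute to the results was not tested. The calls of members below are therefore also read without 236L, whereas those of other pathway genes rest on all 4 lines.

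Of the 10 genes, Ccnd2 had the widest gap between the genotypes in each histone mark. It was called higher in the mutant lines in H3K4me1 (1 of 10 genes, against 5.3% of all genes) and in H3K4me2 (1 of 10, against 1.36%). Rb1 was called lower in H3K4me2 (1 of 10, against 6.37%). In H3K27me3, Ccnd1 and Ccnd2 were called lower (2 of 10, against 6.43%). No member was called lower in H3K4me1, where 7.44% of all genes were, or higher in H3K27me3, where 0.425% were. Leaving out a line cannot end such a call. In all 5, 236R was the mutant line nearer to the control lines, so the gaps were as wide without 236L; the shares of all genes called higher and lower were then 10.1% and 12.6% for H3K4me1, 2.66% and 9.65% for H3K4me2, and 2.12% and 6.99% for H3K27me3. The median difference over the 10 genes (mean of the mutant lines minus mean of the control lines) was 1.59 kb in H3K4me1, 0.718 kb in H3K4me2 and 0 kb in H3K27me3, and that over all genes was 0.203, 0 and 0 kb. By any amount, 2 members were higher and 0 lower in H3K4me1 (25.1% and 14.7% of all genes), 4 higher and 2 lower in H3K4me2 (13.9% and 25.4%), and 0 higher and 2 lower in H3K27me3 (2.13% and 12.2%). Every member carried H3K4me2 in all 4 lines, as did 74.4% of all genes, 8 carried H3K4me1 in all 4 (61.5%), and 6 of the 10 carried no H3K27me3 in any line, as did 56% of all genes.

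**Figure D1:**
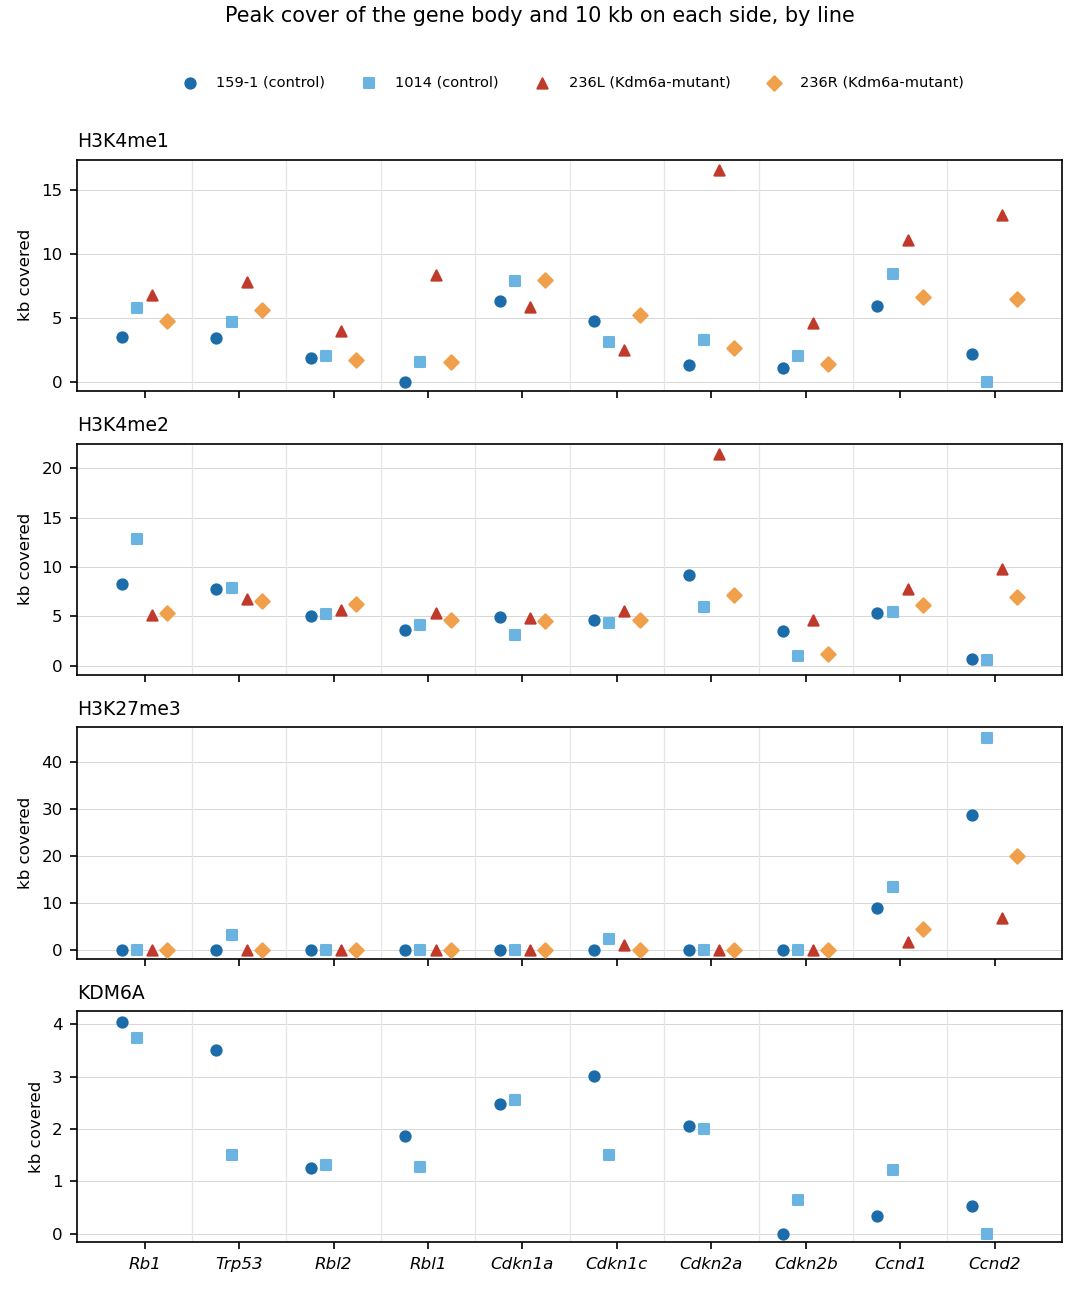
Peak cover (kb, linear axes) of each gene's window in each line for the 3 histone marks, and for KDM6A in the 2 control lines; each point is 1 library, with control lines in blue and mutant lines in red and orange. Ccnd2 shows both mutant lines above the control lines in H3K4me1 and H3K4me2 and below them in H3K27me3, and 236L stands above the other lines at Cdkn2a.

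Line 236L had the most H3K4me1 of the 4 lines at 8 of the 10 genes, and at 6 of them by at least 2 kb, against 41.4% and 24.6% of all genes. In H3K4me2 it was highest at 6 of the 10 and by at least 2 kb at 2 of them, against 27.4% and 8.3% of all genes. In H3K27me3 it was highest at 0 of the 10, against 9.35% of all genes, or 3.53% by at least 2 kb. The 6 genes of the H3K4me1 count were Trp53, Rbl1, Cdkn2a, Cdkn2b, Ccnd1 and Ccnd2. Without 236R, these 6 are called higher in H3K4me1 by construction, because 236L is then compared with the 2 control lines alone. No other member was added (6 in place of 1), and 29.7% of all genes were called. With 236R in the comparison, Ccnd2 alone of the 6 was called.

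Among the engineered genes, Rb1 (chr14:73192858-73325951, mm10), which encodes the founding pocket protein, had less H3K4me2 in both mutant lines. Its window held 8.26 kb in 159-1, 12.8 kb in 1014, 5.13 kb in 236L and 5.33 kb in 236R. Both control lines were above both mutant lines, with a difference of -5.30 kb (control SD 3.20, mutant SD 0.142, n = 2 and 2, exact two-sided permutation p = 0.333). At the higher-coordinate end of the gene, 130 to 135 kb from the lower-coordinate end, every line had a peak, of 3.03, 4.22, 2.57 and 4.04 kb in 159-1, 1014, 236L and 236R. The difference lay inside the gene. Both control lines and neither mutant line had a peak at 27.6 to 28.8 kb (0.849 and 1.13 kb) and at 38.5 to 39.1 kb (0.336 and 0.637 kb). A peak at 119.2 to 122.4 kb was in all 4 lines and shorter in both mutant lines. It measured 1.84, 3.11, 0.822 and 1.29 kb in 159-1, 1014, 236L and 236R. A peak at 44.5 to 47.8 kb measured 2.21, 3.26 and 1.74 kb in 159-1, 1014 and 236L and was absent from the list of 236R. That peak lies over Lpar6, a lysophosphatidic acid receptor gene that is nested within Rb1 at 45.0 to 47.5 kb, so it cannot be assigned to Rb1. With Lpar6 and its flanks left out, a choice made after seeing the data, the window held 6.06, 9.53, 3.39 and 5.33 kb, and the call was lost because 236R lay within 2 kb of 159-1. It was also lost when cover was scaled to the length of the lists (7.82, 11.8, 5.43 and 5.83 kb). Of the 8 alternatives that could end the call, it held in 3.

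H3K4me1 at Rb1 measured 3.55, 5.81, 6.83 and 4.79 kb in the same order, and the genotypes overlapped. KDM6A covered 4.05 kb of the window in 159-1 and 3.74 kb in 1014, the longest cover of the 10 genes in the longest of their windows (153.1 kb). Its peaks lay over the higher-coordinate end (2.05 and 1.78 kb), at about 120 to 122 kb (0.478 and 1.13 kb) and over Lpar6 (0.983 and 0.821 kb), and 159-1 had a further peak of 0.538 kb at the lower-coordinate end. The peak at the gene end ranked at the 97.1th percentile of the authors' fold enrichment in the 159-1 list and at the 78.0th in the 1014 list. H3K27me3 was 0 kb in every line.

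**Figure D2:**
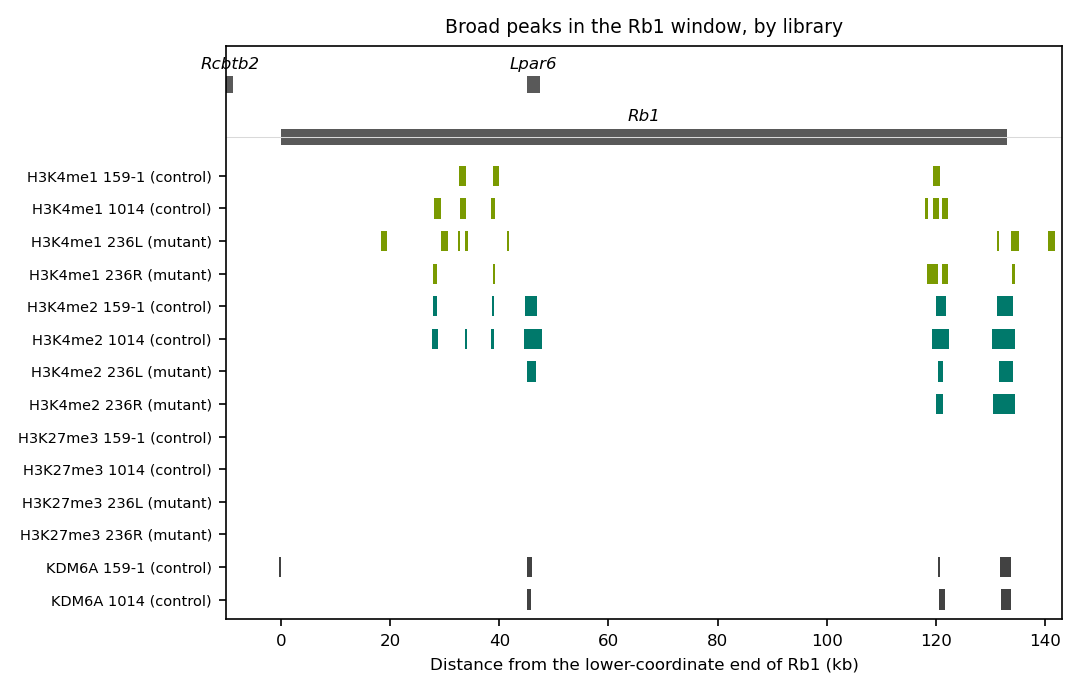
Broad peaks in the Rb1 window, 1 row for each library, against the distance from the lower-coordinate end of Rb1 (kb); grey bars at the top are genes. The H3K4me2 peak near 132 kb is in all 4 lines, the peak over Lpar6 is in all but 236R, and those near 28 and 39 kb are in both control lines and neither mutant line.

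Trp53 (chr11:69580348-69591873), which encodes the p53 transcription factor, had much the same H3K4me2 in the 4 lines, with 7.74 kb in 159-1, 7.89 kb in 1014, 6.77 kb in 236L and 6.54 kb in 236R. Both mutant lines were lower, with a separation of -0.967 kb, short of the 2 kb set for a call. A single peak from about 4 kb before to 3 kb after the lower-coordinate end, where its promoter lies, made up most of it: 6.88, 7.01, 6.43 and 6.54 kb. H3K4me1 measured 3.44, 4.65, 7.81 and 5.59 kb. Its main sites, at -5.05 to -1.59 kb and 1.90 to 6.09 kb, lay on both sides of that end and ran into the H3K4me2 peak. The mutant lines were above the control lines by 0.940 kb, again under 2 kb. KDM6A covered 3.52 kb in 159-1 and 1.51 kb in 1014, all of it within H3K4me2. This gene end is shared: Wrap53, a gene of telomerase assembly, takes up 9.90 kb of the Trp53 window, and peaks between the 2 genes cannot be assigned to one of them. The H3K27me3 in the window (3.15 kb in 1014 and 0 kb in the other 3 lines) belonged to a peak at 18.4 to 25.2 kb that lies mostly over Atp1b2.

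Rbl2 (chr8:91070057-91123844), which encodes the pocket protein p130, had 5.05, 5.22, 5.63 and 6.23 kb of H3K4me2 in 159-1, 1014, 236L and 236R. Both mutant lines were higher, by 0.405 kb, so no call was made. The promoter peak was 2.88, 2.795, 2.79 and 3.002 kb, and a peak at 62.2 to 64.9 kb was 2.32, 2.68, 2.32 and 2.36 kb. That second peak lies near the far end of Aktip, whose body takes up 22.1 kb of the window and overlaps Rbl2 itself. H3K4me1 was 1.84, 1.99, 3.98 and 1.68 kb, with 236L alone above 2 kb. KDM6A covered 1.25 and 1.32 kb, at the promoter and at the Aktip end, and H3K27me3 was 0 kb throughout.

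All 3 engineered genes thus kept H3K4me2 peaks at a gene end in all 4 lines, with KDM6A there in both control lines. Peak lists do not show whether an allele is deleted, and the labels give no coordinates of the engineered segments. The targeted gene Kdm6a had 3.10, 4.38, 6.01 and 4.66 kb of H3K4me2 in the same order of lines; a peak there does not show whether the guide RNA cut, so it is no check of the labels.

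Rbl1 (chr2:157145893-157204534), which encodes the pocket protein p107 and is itself an E2F target, was not engineered. Its H3K4me2 measured 3.61 kb in 159-1, 4.15 kb in 1014, 5.36 kb in 236L and 4.64 kb in 236R. The mutant lines were both higher by 0.492 kb, under the 2 kb for a call. The cover came mainly from 1 promoter peak at 55.0 to 60.3 kb, which KDM6A overlapped by 1.37 and 1.28 kb in 159-1 and 1014. The KDM6A peak ranked at the 97.2th and 95.4th percentile of fold in its 2 lists. H3K4me1 was 0, 1.57, 8.35 and 1.55 kb; the high value was that of 236L, which had 6 peaks in the window where the others had 0 to 2, and the genotypes overlapped.

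The promoters of the CDK inhibitors differed in sequence and in marks, and 5 of them are printed for that reason. Of the 10 members, 6 matched the RefSeq promoter table (GRCm38.p6, the assembly of mm10), with 8 promoters of 300 bases, from 250 before to 50 after the start. CpG pairs are in capitals. Cdkn1a has an upstream promoter at chr17:29090729-29091028 (plus strand) and a downstream one at chr17:29093519-29093818 (plus strand). Cdkn2a has the promoter nearer to Cdkn2b at chr4:89294570-89294869 (minus strand), on the ARF side, and the inner one at chr4:89282143-89282442 (minus strand), on the INK4A side. The promoter of Cdkn2b is at chr4:89310983-89311282 (minus strand).
Cdkn1a upstream: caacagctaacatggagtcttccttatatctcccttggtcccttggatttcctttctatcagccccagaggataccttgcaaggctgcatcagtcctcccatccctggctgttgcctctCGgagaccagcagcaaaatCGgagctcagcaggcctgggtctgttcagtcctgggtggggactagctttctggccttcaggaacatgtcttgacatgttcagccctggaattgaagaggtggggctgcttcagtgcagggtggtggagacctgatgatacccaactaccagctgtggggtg
Cdkn1a downstream: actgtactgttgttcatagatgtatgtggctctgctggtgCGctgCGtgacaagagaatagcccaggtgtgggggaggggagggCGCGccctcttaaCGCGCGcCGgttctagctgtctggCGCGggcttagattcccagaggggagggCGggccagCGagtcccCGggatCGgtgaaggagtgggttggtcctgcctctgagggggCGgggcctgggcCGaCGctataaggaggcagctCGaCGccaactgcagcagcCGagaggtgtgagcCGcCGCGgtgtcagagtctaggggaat
Cdkn2a ARF side: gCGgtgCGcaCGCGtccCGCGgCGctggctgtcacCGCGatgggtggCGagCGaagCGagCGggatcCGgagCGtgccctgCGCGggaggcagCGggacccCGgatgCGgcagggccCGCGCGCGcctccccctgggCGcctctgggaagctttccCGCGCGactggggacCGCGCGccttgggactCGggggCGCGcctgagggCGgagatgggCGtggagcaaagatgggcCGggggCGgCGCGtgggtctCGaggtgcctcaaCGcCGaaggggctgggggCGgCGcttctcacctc
Cdkn2a INK4A side: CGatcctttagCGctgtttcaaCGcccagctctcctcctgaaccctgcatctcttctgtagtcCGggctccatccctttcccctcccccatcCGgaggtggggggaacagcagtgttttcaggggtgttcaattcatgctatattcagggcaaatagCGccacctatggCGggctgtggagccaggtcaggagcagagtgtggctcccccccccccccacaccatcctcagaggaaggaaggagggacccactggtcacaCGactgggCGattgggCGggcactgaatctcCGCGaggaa
Cdkn2b: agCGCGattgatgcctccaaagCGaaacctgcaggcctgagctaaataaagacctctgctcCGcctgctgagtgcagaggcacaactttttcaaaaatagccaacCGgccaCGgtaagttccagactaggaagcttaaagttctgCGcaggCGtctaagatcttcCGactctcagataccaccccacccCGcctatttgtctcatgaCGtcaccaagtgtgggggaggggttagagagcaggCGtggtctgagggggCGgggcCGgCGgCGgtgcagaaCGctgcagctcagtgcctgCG

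The upstream Cdkn1a promoter holds 2 CpG pairs and the downstream one 23, at the 14.1th and 78.5th percentile of all 32851 promoters in the table. The ARF-side Cdkn2a promoter holds 45 (98.1th percentile), the INK4A-side one 12 and the Cdkn2b promoter 18. Peaks of H3K4me2 covered the whole downstream Cdkn1a promoter in all 4 lines and none of the upstream one in any line. H3K4me1 covered the whole upstream promoter in 159-1, 1014 and 236R and none of it in 236L. Across all promoters H3K4me2 went with CpG content: 96.9% of the 7071 promoters with at least as many CpG pairs as the downstream one were at least 50% covered by H3K4me2 in all 4 lines, against 1.79% of the 7656 with at most as many as the upstream one, and 44% of all promoters. H3K27me3 covered none of the 8 member promoters in any line. The share of all promoters without it in every line was not computed, so this count has no background. By a stricter measure, 1.59% of all promoters and none of the 8 were at least 50% covered by it in all 4 lines. Rb1, Cdkn1c, Ccnd1 and Ccnd2 had no promoter in the table. The 8 promoters thus leave out Ccnd1 and Ccnd2, the 2 members with H3K27me3 in all 4 lines. The Trp53, Rbl2 and Rbl1 promoters, with 10, 14 and 29 CpG pairs, were wholly covered by H3K4me2 in all 4 lines.

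Short motifs were searched on both strands. The E2F motif (TTTCGCGC, TTTGGCGC, TTTCCCGC or TTTGCCGC) is in 2.26% of all promoters; of the 8 member promoters it is in that of Rbl1, as TTTCGCGC, and in the ARF-side promoter of Cdkn2a, as TTTCCCGC at bases 152 to 159. The upstream Cdkn1a promoter has 2 matches to the p53 decamer, the repeat that response elements of TRP53 are built from, found in 8.36% of all promoters. They are GGACTAGCTT at bases 178 to 187 and GAACATGTCT at bases 200 to 209, counted from the first base printed. The Trp53 promoter, not printed here, has 1 match, GGACTTGCCC at bases 176 to 185. The GC box (GGGCGG), in 35.7% of all promoters, has 2 matches in the downstream Cdkn1a promoter and 3 in the ARF-side promoter of Cdkn2a. It has 1 each in the INK4A-side, Cdkn2b, Rbl2 and Rbl1 promoters. The INK4A-side match overlaps a CCAAT box (CCAAT, in 37.4% of all promoters) on the opposite strand, and no other matches in these 8 promoters overlap. A match describes the letters and is not evidence of binding.

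Cdkn1a (chr17:29090979-29100722) encodes p21, the inhibitor through which TRP53 arrests the cell cycle. Its H3K4me2 was 4.98 kb in 159-1, 3.12 kb in 1014, 4.85 kb in 236L and 4.54 kb in 236R, and both mutant lines lay within the range of the control lines. Most of it was 1 peak over the downstream promoter, of 4.46, 3.12, 3.29 and 4.54 kb. That peak ranked highest in 236L, at the 97.9th percentile of fold in its list, and at the 74.7th to 88.5th percentile in the other lists. H3K4me1 was 6.31, 7.86, 5.86 and 7.98 kb, with overlapping genotypes. Around the downstream start it lay on both sides in 159-1, 1014 and 236R, and in 236L as 1 peak of 4.13 kb over and beyond it. The other peak of 236L, of 1.90 kb, lay at -10.2 to -8.27 kb from the upstream start and had the higher fold of the pair. KDM6A covered 2.48 and 2.56 kb in 159-1 and 1014, mainly as 1 peak starting in or before the downstream promoter, and H3K27me3 was 0 kb in all 4 lines.

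**Figure D3:**
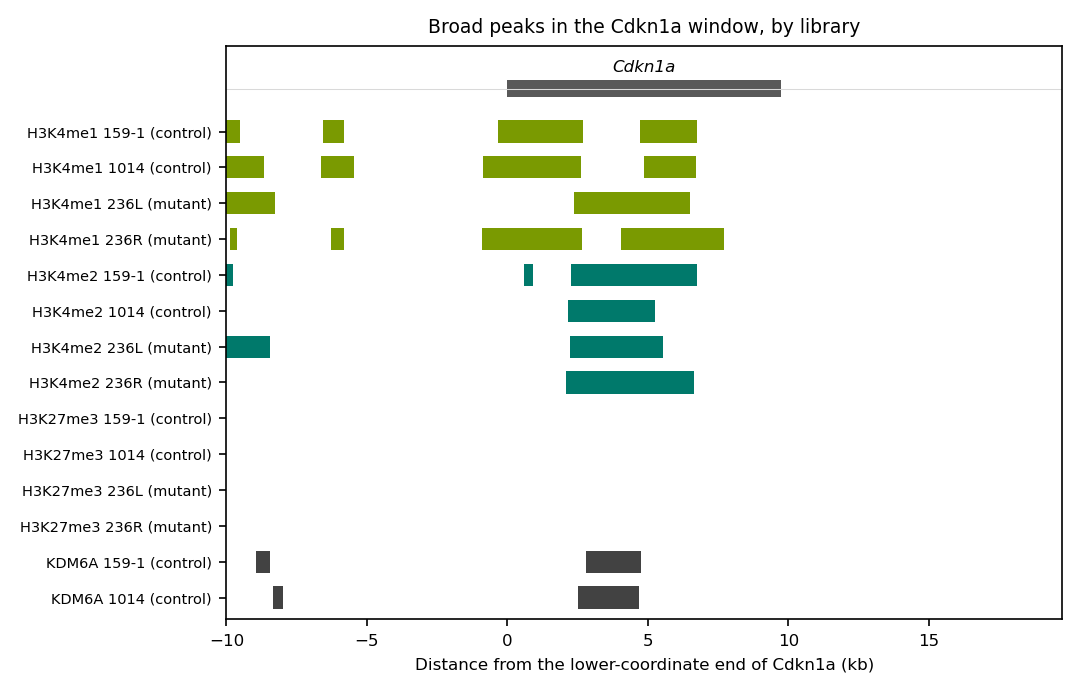
Broad peaks in the Cdkn1a window, 1 row for each library, against the distance from its lower-coordinate end (kb), which is the upstream start. H3K4me2 begins near 2 kb in all 4 lines, H3K4me1 covers the upstream start in 159-1, 1014 and 236R but not in 236L, and there is no H3K27me3.

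Cdkn1c (chr7:143458339-143461059) encodes p57, an imprinted inhibitor. Its H3K4me2 was 4.64, 4.30, 5.54 and 4.599 kb in 159-1, 1014, 236L and 236R, in a peak over the gene and another beyond its higher-coordinate end. H3K4me1 was 4.78, 3.15, 2.496 and 5.24 kb, and the genotypes overlapped in both marks. H3K27me3 was found in 2 lines, 1 of each genotype: 2.37 kb in 1014, outside H3K4me2, and 1.02 kb in 236L, wholly inside the H3K4me2 peak over the gene. KDM6A covered 3.01 kb in 159-1 and 1.50 kb in 1014, nearly all within H3K4me2.

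At Cdkn2a (chr4:89274473-89294619), which encodes INK4A and ARF, 236L differed from the other 3 lines in both H3K4 marks. H3K4me1 was 1.31 kb in 159-1, 3.25 kb in 1014, 16.6 kb in 236L and 2.67 kb in 236R. H3K4me2 was 9.16, 5.94, 21.5 and 7.19 kb. In both marks 236R lay between the 2 control lines, so the genotypes overlapped and the differences of 7.33 kb (mutant SD 9.82, control SD 1.37, n = 2 and 2, exact permutation p = 0.667) and 6.77 kb (mutant SD 10.1, control SD 2.28, n = 2 and 2, exact permutation p = 0.667) were within the spread of the mutant lines. The H3K4me2 peak over the ARF-side promoter was in all 4 lines, at 7.06, 5.94, 10.7 and 5.74 kb, and was longest in 236L. Further length of 236L lay over the inner promoter, with 6.37 kb where 159-1, 1014 and 236R had 1.18, 0 and 0.931 kb, and at the lower-coordinate end, with 4.40 kb where they had 0 kb. There, too, 236L had a single H3K4me1 site of 6.30 kb that no other line had.

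The H3K4me2 peaks covered the INK4A-side promoter in 159-1, 236L and 236R and not in 1014, and the ARF-side promoter in all 4 lines. KDM6A in both control lines lay over the ARF-side promoter, with 2.06 kb in 159-1 and 2.00 kb in 1014, and was at 0 over the INK4A-side promoter. No H3K27me3 peak lay in the Cdkn2a or Cdkn2b windows in any line.

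Cdkn2b (chr4:89306289-89311032), the neighbour that encodes INK4B, has a window that overlaps that of Cdkn2a, so some peaks count for both. H3K4me2 was 3.54 kb in 159-1, 1.00 kb in 1014, 4.64 kb in 236L and 1.17 kb in 236R. Each genotype had 1 high and 1 low line. The promoter was wholly covered in 159-1 and 236L, by a site of 1.57 and 3.65 kb, and not covered in 1014 and 236R. H3K4me1 was 1.05, 2.01, 4.61 and 1.44 kb, again highest in 236L. KDM6A had 1 peak here, of 0.646 kb in 1014, and none in 159-1. It lies wholly within the H3K4me2 peak of the library labelled 159-1 and outside H3K4me2 of the library labelled 1014. These are the 2 libraries whose labels and list names disagree, so which line has both marks cannot be told apart.

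**Figure D4:**
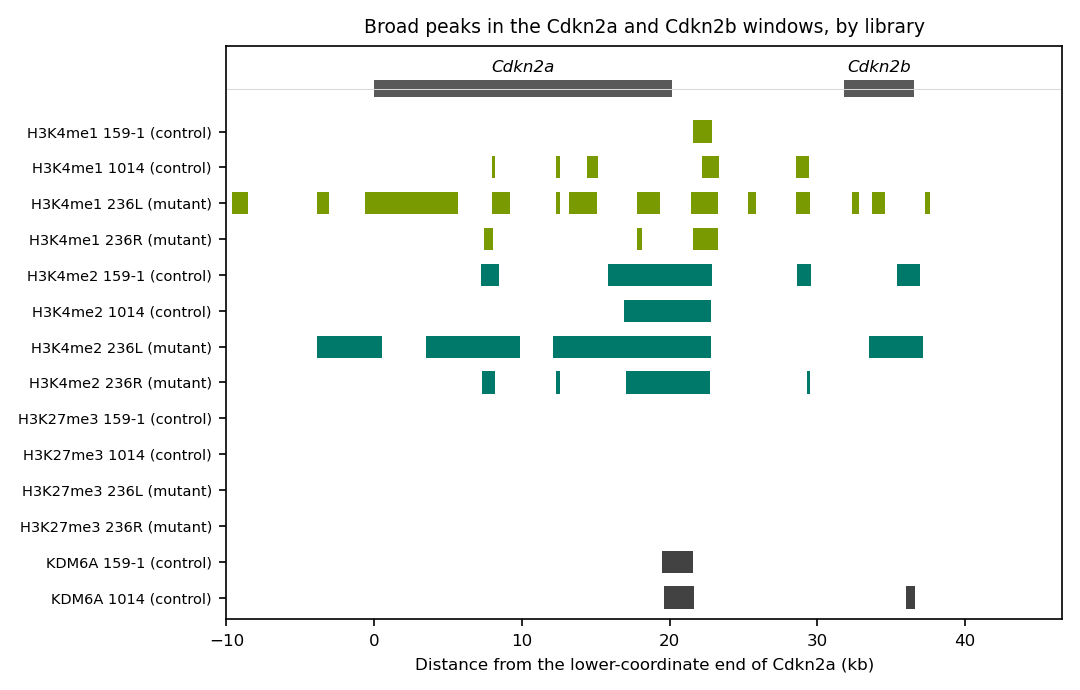
Broad peaks in the Cdkn2a and Cdkn2b windows, 1 row for each library, against the distance from the lower-coordinate end of Cdkn2a (kb). All 4 lines share H3K4me2 near 20 kb, 236L has further H3K4me1 and H3K4me2 sites from -10 to 10 kb, and Cdkn2b is marked by H3K4me2 in 159-1 and 236L.

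Ccnd2 (chr6:127125162-127152188) encodes cyclin D2. Its window held 0.714 kb of H3K4me2 in 159-1, 0.634 kb in 1014, 9.76 kb in 236L and 6.999 kb in 236R. Both mutant lines were above both control lines by at least 6.29 kb, and the difference was 7.70 kb (control SD 0.0566, mutant SD 1.95, n = 2 and 2, exact permutation p = 0.333). This call held in all 7 alternatives that could end it. Most of it was 1 site across the higher-coordinate end of the gene, at 23.6 to 30.7 kb, with 0.714, 0.634, 7.08 and 6.60 kb in the 4 lines. Within their own lists, the peaks of this site ranked at the 46.5th and 12.4th percentile of the authors' fold in 159-1 and 1014 and at the 89.7th and 92.6th in 236L and 236R; ranks in lists of different lengths do not by themselves show a change.

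The same site carried the H3K4me1 difference. H3K4me1 in the Ccnd2 window was 2.20 kb in 159-1, 0 kb in 1014, 13.1 kb in 236L and 6.48 kb in 236R. The mutant lines were both higher, by at least 4.29 kb, with a difference of 8.69 kb (control SD 1.55, mutant SD 4.68, n = 2 and 2, exact permutation p = 0.333). The site at 23.0 to 30.8 kb had 2.20, 0, 7.81 and 6.48 kb, and 236L had 3 further sites inside the gene that the other lines lacked. The call held in 5 of the 7 alternatives that could end it and was lost in the gene body alone and with a separation of 5 kb.

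H3K27me3 covered most of the Ccnd2 window in the control lines. It measured 28.7 kb in 159-1 (61.0% of the window), 45.1 kb in 1014 (95.8%), 6.76 kb in 236L (14.4%) and 19.9 kb in 236R (42.3%). Both mutant lines were lower, with a separation of -8.81 kb and a difference of -23.6 kb (control SD 11.6, mutant SD 9.29, n = 2 and 2, exact permutation p = 0.333). The mutant lists were also shorter as a whole. With cover scaled to the mean list length, a choice made after seeing the data, the window held 31.6 kb in 159-1, 20.4 kb in 1014, 24.5 kb in 236L and 32.6 kb in 236R. On that scale the genotypes overlapped and the difference turned to 2.52 kb higher in the mutant lines. The peaks of 1014 already filled 95.8% of the window, so its scaled value could hardly have been above 20.4 kb. This scale therefore cannot decide the direction of the difference. With the lists shortened to equal covered length by their q-values the direction and call stayed, at 15.0, 43.6, 6.76 and 9.19 kb. The strongest H3K27me3 peak of the window ranked at the 99.9th, 98.8th, 87.0th and 99.96th percentile of fold within its list, so in 236R it was among the top peaks although the gene was called lower.

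The long H3K4me2 site of the mutant lines and their H3K27me3 lay on the same stretch. In 236L 6.57 kb of H3K4me2 (67.4%) and in 236R 5.90 kb (84.2%) lay within H3K27me3 peaks of the same line, and in both control lines the short H3K4me2 peak lay wholly within H3K27me3. Bulk lists cannot tell both marks on 1 allele from each mark in different cells. KDM6A was scarce, with 0.523 kb in 159-1, at the 4.08th percentile of fold of its list, and 0 kb in 1014.

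**Figure D5:**
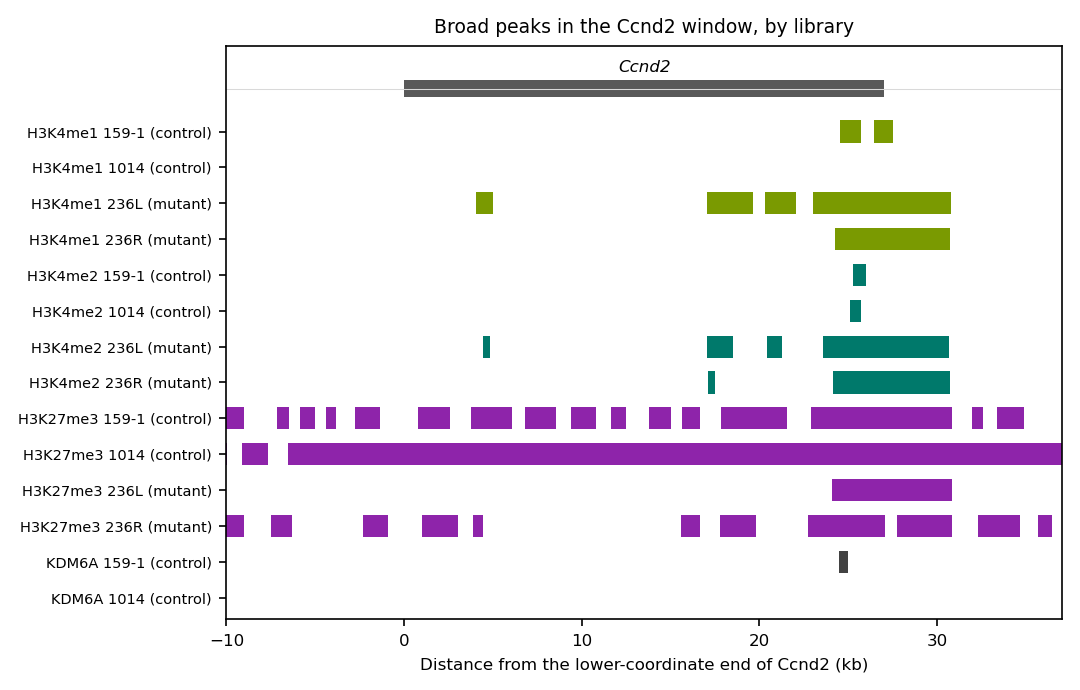
Broad peaks in the Ccnd2 window, 1 row for each library, against the distance from its lower-coordinate end (kb). The H3K4me1 and H3K4me2 site at 23 to 31 kb is long in 236L and 236R and short or absent in the control lines, while H3K27me3 covers 61.0% and 95.8% of the window in the control lines and 14.4% and 42.3% in the mutant lines.

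Ccnd1 (chr7:144929931-144939831), which encodes cyclin D1, shared part of this pattern. H3K27me3 was 8.83 kb in 159-1, 13.2 kb in 1014, 1.61 kb in 236L and 4.37 kb in 236R. Both mutant lines were lower, with a separation of -4.47 kb and a difference of -8.05 kb (control SD 3.12, mutant SD 1.95, n = 2 and 2, exact permutation p = 0.333). Scaled to list length the values were 9.74, 6.00, 5.83 and 7.15 kb, which overlapped, and the call was lost; at equal covered length it was kept (7.92, 10.2, 1.61 and 2.32 kb). H3K4me2 was 5.30, 5.46, 7.78 and 6.20 kb. The mutant lines were higher by 0.738 kb, under the 2 kb for a call, and the control lines had 4.81 and 5.46 kb at the higher-coordinate end. H3K4me1 was 5.92, 8.47, 11.1 and 6.68 kb, with overlapping genotypes. Of the H3K4me2, 81.9%, 100%, 20.6% and 61.0% lay within H3K27me3 of the same line, in the same order. The lists of the control lines were paired by their labels. KDM6A covered 0.344 kb in 159-1 and 1.21 kb in 1014. The window includes 10.8 kb of LTO1, a neighbouring gene that overlaps the lower-coordinate end of Ccnd1.

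KDM6A covered at least 0.5 kb in both control lines at 7 of the 10 members, against 54.9% of all genes. The 3 that did not reach it were Cdkn2b, Ccnd1 and Ccnd2, and the last 2 were the members with H3K27me3 in all 4 lines (8.26% of all genes had it). At the 7 genes, 73.5% to 100% of the KDM6A cover in 159-1 and 85.4% to 100% in 1014 lay within H3K4me2 of the same label. At Ccnd1 that share was 0% in 159-1 and 45.6% in 1014, and at Ccnd2 0% in 159-1, the line with KDM6A there.

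Most other genes of the RB and p53 pathways were not called in any histone mark. In H3K4me2, of 48 genes in 5 lists, 1 was called higher (Cdkn2c), 2 lower (Tfdp1 and Btg2) and 45 neither. Of all genes, 1.36% were called higher and 6.37% lower in this mark. In H3K4me1, 6 were called higher, 2 lower and 40 neither, and of all genes 5.3% were higher and 7.44% lower. In H3K27me3 none was called, and of all genes 0.425% were higher and 6.43% lower. Of the 48, 37 were at 0 kb of H3K27me3 in all lines, against 56% of all genes. KDM6A reached 0.5 kb in both control lines at 45 of the 48, against 54.9% of all genes. By list, the E2F and DP factors (10 genes) had 1 lower in each H3K4 mark, and the CDKs and other cyclins (11) had 2 higher in H3K4me1. The other CDK inhibitors (3) had 1 higher in each H3K4 mark, the partners in the DREAM and MuvB complexes (7) had 2 higher in H3K4me1, and the p53 family, regulators and targets (17) had 1 higher and 1 lower in H3K4me1 and 1 lower in H3K4me2.

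Tfdp1, which encodes the DP1 partner that E2F factors need to bind DNA, was lower in both H3K4 marks. Its H3K4me1 was 19.6, 21.9, 10.6 and 5.51 kb and its H3K4me2 13.2, 13.8, 4.43 and 3.88 kb in 159-1, 1014, 236L and 236R, with both mutant lines far below both control lines. The third D cyclin gene, Ccnd3, was higher in H3K4me1 (8.57, 10.7, 22.0 and 14.4 kb), with H3K4me2 at 10.8, 9.96, 12.3 and 11.9 kb. Foxm1, a driver of mitotic genes, was higher in H3K4me1 too, at 4.29, 3.45, 11.4 and 8.72 kb. Cdkn2c, which encodes the INK4 inhibitor p18, was higher in H3K4me2, at 8.52, 12.1, 16.7 and 18.2 kb. Trp73, a relative of Trp53, had 40.4, 56.2, 4.69 and 36.3 kb of H3K4me1, with 236L far below the rest and a separation of -4.12 kb between 236R and 159-1. Btg2, a TRP53 target that slows proliferation, had 14.4, 14.8, 6.32 and 12.1 kb of H3K4me2, where again 236L was the lowest line.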

How the data were processed

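ChIP-seq peak lists of 14 libraries were used; the 10 input libraries have no list used here. Per the submitters' processing notes, the tools were Bowtie2 2.4.2 (an aligner) and MACS3 3.0.0a7 (a peak caller) and the build was mm10; thresholds, control tracks and duplicate handling are not given in the sources used. H3K4me1 has its own input set, per the labels. Each deposited list gives, for 1 library, peak positions with the authors' score, their fold enrichment (a linear ratio) and their −log10 p and −log10 q values. Such values ranked or filtered peaks inside their own list and were not compared across lists.

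In each list, overlapping peaks of the autosomes, X and Y were merged, leaving out 337 peaks elsewhere, and the length inside each gene window (NCBI gene table, GRCm38.p6, no strand) was taken with Python 3.11.15, pandas 2.3.3 and numpy 2.4.6. The code was tested on simulated intervals. Calls, exact two-sided permutation tests and shares of all 21883 genes follow the report. Groups came from the sample labels. The members and gene lists were chosen with earlier results of these data known. Text names all 10 members, Kdm6a, neighbours, and pathway genes called in a histone mark, at most 4 a mark by separation. Alternatives changed the window, the separation, the q-value limit, the list length and the lines used. Precision is limited by 2 lines a genotype and unknown depth. Figures used matplotlib 3.10.9.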

Additional observations from a re-analysis of the deposited data

How the results depend on the processing

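Cover depends on list length, on window size and, with 2 lines a genotype, on single lines; peak lists carry no depth. Lists scaled to equal mean length, and Rb1 without Lpar6, were chosen after seeing the data. No paired analysis was possible because each line occurs in 1 genotype only. The cause of each change below was not tested, except where a larger separation, a smaller window or fewer lines changes the count by construction.

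Shares of all genes called the same way follow each count. In H3K4me1, where 1 member was called higher, 0 were in the gene body alone (1.29%) or with a separation of 5 kb (0.635%). Trp53 and Ccnd2 made 2 with 50 kb windows (12.8%), with q up to 0.001 (7.53%), at equal covered length (7.92%) and scaled (8.28%). With 50 kb windows 1 (Cdkn1c) was lower (10.9%), and the median difference of the members was 5.05 kb, against 2.93 kb with q up to 0.001. In H3K4me2, 2 members were higher with 50 kb windows (3.14%). The 1 lower member (Rb1) became 0 with a separation of 5 kb (1.9%), in windows at the gene ends (1.78%), at equal covered length (3.67%) and scaled (3.62%). The median was 2.73 kb with 50 kb windows, 0.353 kb at gene ends, 1.11 kb at equal covered length and 1.44 kb scaled. In H3K27me3 the 2 lower members became 1 with a separation of 5 kb (3.52%), in the gene body (3.85%) and at gene ends (4.75%), 0 scaled (2.88%), and 3 with 50 kb windows (Cdkn1c, Ccnd1 and Ccnd2, 12.3%). Scaled, the Ccnd2 difference reversed to 2.52 kb. The median was -0.414 kb with 50 kb windows. Of the 7 alternatives that could end the lower H3K27me3 calls, Ccnd1 held in 4 and Ccnd2 in 5.

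Leaving out a line, which can add calls but not end them, gave 1 to 6 members higher in H3K4me1 (6 without 236R, 29.7%; 2 without 1014, 9.03%) and a median of 0.577 kb (without 236L) to 3.42 kb (without 236R). In H3K4me2 it gave 1 to 3 higher (3 without 236R: Cdkn2a, Ccnd1 and Ccnd2, 10.3%), 1 lower each time (9.18% to 11.5%), and a median of 0.308 kb (without 236L) to 1.27 kb (without 236R). In H3K27me3, 3 were lower without 159-1 (16.9%) and 2 when any other line was left out (6.99% to 10.1%). The count of members with KDM6A in both control lines, 7 in the main setting (54.9% of all genes), ranged from 5 to 9 over 7 alternatives. Shares of all genes were not computed for those alternatives, so these counts cannot be set against a background.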

Other observations

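Of the 48 other pathway genes, 11 had H3K27me3 in at least 1 line. The other 37 of the 48 had none in any line, against 56% of all genes. The genes named here were chosen after their values were seen. Cdk6, a partner of the D cyclins, had 22.5 kb in 159-1, 65.5 kb in 1014, 0.356 kb in 236L and 25.1 kb in 236R, so 236R lay within the range of the control lines and 236L far below it. Trp73 was the reverse: 236L had 9.48 kb, 236R had 1.43 kb and neither control line had any (0 kb). The cyclin gene Ccna1 had 2.71 kb and Cdk4 1.13 kb in 236L, and both were at 0 kb in the other 3 lines. Lin9, a subunit of the MuvB core, had it in all 4 lines, at 0.836, 3.31, 1.00 and 1.36 kb.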
